A study of Drosophila melanogaster with 6 samples.

Results

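The odorant-binding protein (Obp) genes were followed in wing imaginal discs of Drosophila melanogaster, as all genes whose symbol in the platform annotation begins with Obp and a number and that have a probe set matched to 1 gene. This gave 47 of the 11982 genes represented on the arrays. Wing discs are larval pouches of epithelium from which the adult wing and notum arise. RNA came from discs of w1118 larvae, used as wild type, and of larvae of the strain kdm510424, labelled as kdm5 mutant, all dissected at 96 h AED in the third instar and grown on standard food. There were 3 biological replicates per genotype, each a pool of about 60 discs measured on its own Drosophila Genome 2.0 array. The labels do not say whether mutant larvae carried the allele on both chromosomes, and no strain of the mutant's own background was measured, so strain and mutation cannot be told apart in any change below. Nor do they say whether replicates came from separate crosses, so p-values reflect only the spread among these arrays.

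Odorant-binding proteins are small, secreted, mostly alpha-helical proteins held together by disulfide bonds, with a pocket for hydrophobic ligands. In the adult fly many of them are made by support cells of olfactory and taste hairs and fill the fluid around the sensory neurons, where they bind odorants and pheromones. Others are made far from any sensory hair, in fat body, gut, glia or male reproductive glands. In the wing disc the precursors of the bristles of the wing margin and notum are set up in the late larva, and the bristles themselves mature in the pupa.

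Values are log2 signals of a probe set as deposited, and changes are mutant minus wild type on this log2 scale. A probe set's brightness depends on its own probes, so the signals are not amounts that can be compared between genes. The median signal over all probe sets and arrays was 4.44, and array medians ran from 4.42 to 4.45. No detection call was at hand, so signals near or below this median are described as dim, not as absent. A gene is called here when its adjusted p is under 0.05 (limma, Benjamini-Hochberg over all 18769 probe sets tested). The mutated gene itself read 10.09, 10.15 and 9.98 in wild type and 4.67, 3.70 and 4.49 in the mutant. Kdm5, which removes methyl groups from lysine 4 of histone H3, thus changed by -5.79 ± 0.23 (SE, adjusted p = 6.18e-06, limma). All 8 measured genes of the wing disc list, among them nub and ci, lay above the median signal on every array. So did all 10 haemocyte, 7 of 10 fat body and 6 of 9 salivary gland genes, so this does not single out disc tissue. The gene nub, which acts in the wing pouch, read 11.99 ± 0.04 (wild type) and 12.00 ± 0.14 (mutant; SD, n = 3 each). From the same list vg, Dll and salm were called lower, with changes of -0.18, -0.31 and -0.21 (limma), and 5 genes were not called.

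Only 8 of the 47 Obp genes gave a signal over 5 on any array, and every one of these 8 had a lower mean in the kdm5 mutant. They were Obp56a, Obp99a, Obp99b, Obp83g, Obp56d, Obp44a, Obp56b and Obp99c. Of them 6 were called lower, by 1.89-fold to 8.87-fold, while Obp56d and Obp44a, which spread widely among the wild type arrays, were not called. The limit of 5 was chosen after the signals were seen, and these counts lend no support to a direction. The other 39 genes stayed between 2.58 and 4.83 on all arrays, with 1 called lower and 1 called higher. In all, 7 of 47 Obp genes were called lower, or 14.9%, against 11.9% of all genes, and 1 was called higher, or 2.13%, against 9.76% of all genes. Taken in either direction, 8 were called, or 17.0%, against 21.7%. By count alone the family therefore lay near the share of lower calls over all genes. The arrays of the genotypes did not overlap in 11 genes with lower mutant values, or 23.4%, against 21.6% of all genes, and in 8 with higher ones, or 17.0%, against 20.1%. Lower calls of at least 2-fold numbered 5 of 47, or 10.6%, against 1.82% of all genes. The median change of the 47 was -0.02, beside 0.00 for all genes. With the arrays centred on the hybridization spike-in controls, which raises the median change of all genes to 0.17, the split was 7 lower and 13 higher calls. The shares of all genes called under this centring are not given here, so these counts cannot be set beside the shares above.

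**Figure D1:**
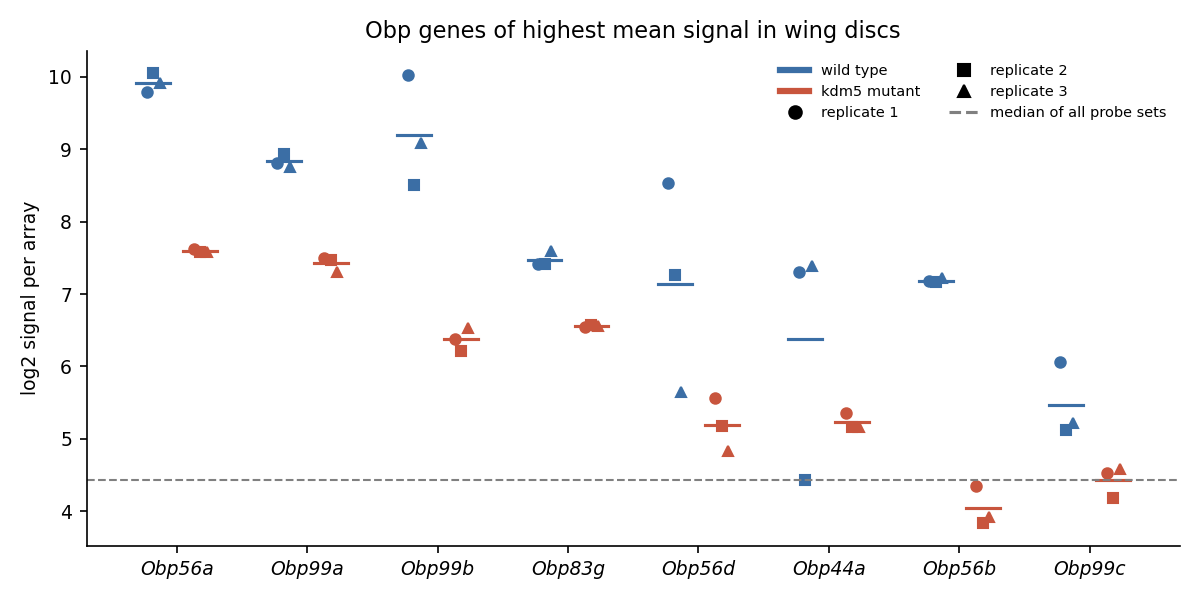
Log2 signal per array (vertical axis) of the 8 Obp genes of highest mean signal, with wild type in blue and the kdm5 mutant in red; marker shapes give the replicate number, short bars the mean of 3 arrays and the dashed line the median of all probe sets, 4.44. Obp56a, Obp99a, Obp83g and Obp56b form separate groups that are tighter in wild type than those of the other bright genes. The mutant arrays of Obp56b spread more (SD 0.28), and Obp56d and Obp44a spread over the wild type arrays.

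Obp56b showed the largest fall of the family and read below the median signal in the mutant. It gave 7.18, 7.16 and 7.22 on the wild type arrays and 4.35, 3.83 and 3.93 on the mutant arrays. The wild type arrays nearly coincided and lay far above every mutant array. The difference was -3.15 ± 0.13 (SE; an 8.87-fold fall, with a 95% interval of 7.20-fold to 10.9-fold; adjusted p = 6.73e-06, limma). The mutant signal is dim, so background may enter the size of this fold.

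Obp56a, its direct neighbour in the genome, fell as well but kept a bright signal. The wild type arrays read 9.80, 10.05 and 9.92 and the mutant arrays 7.62, 7.59 and 7.58. The groups did not overlap, and the mutant arrays agreed within a few hundredths. Obp56a thus fell 5.01-fold, a change of -2.32 ± 0.07 (SE; adjusted p = 1.97e-06, limma).

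Obp56d belongs to the same run of genes and is known from adult antennae and mouthparts. Its wild type arrays read 8.53, 7.26 and 5.65, and its mutant arrays 5.57, 5.17 and 4.83. All mutant arrays lay below all wild type arrays, but replicate 3 of the wild type nearly met replicate 1 of the mutant. The change of -1.96 ± 0.64 (SE) was not called (adjusted p = 0.0819, limma), with a 95% interval from -3.47 to -0.44. Without wild type replicate 3 it read -2.70 and was called (adjusted p = 0.00687, limma). With all arrays kept it was called with the replicate number as a block and under both spike-in centrings (adjusted p = 0.0307, 0.0330 and 0.0384, limma).

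Obp genes often lie side by side, and the gene table places 31 of its 51 Obp genes in 9 runs in which members follow each other within 2 gene places. The 6 genes from Obp56a to Obp56f form the longest of these. Within it Obp56a and Obp56b were called lower, while Obp56c between Obp56b and Obp56d changed by -0.19 ± 0.10, Obp56e by -0.01 ± 0.10 and Obp56f by 0.01 ± 0.05 (SE), all 3 at dim signals under 3.7 and none called. The nearest measured gene before the run, CG15128, fell too, from 5.02 ± 0.10 to 4.36 ± 0.13 (SD, n = 3 each; change -0.67 ± 0.08, SE, adjusted p = 0.00152, limma). The next genes outward, CG34198 and CG15127, changed by 0.00 ± 0.06 and 0.08 ± 0.09 (SE), and CG8517 after the run by -0.09 ± 0.06. Obp56g, Obp56h and Obp56i, which lie farther along the chromosome, were dim, changed by -0.02, 0.04 and -0.19 and were not called.

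**Figure D2:**
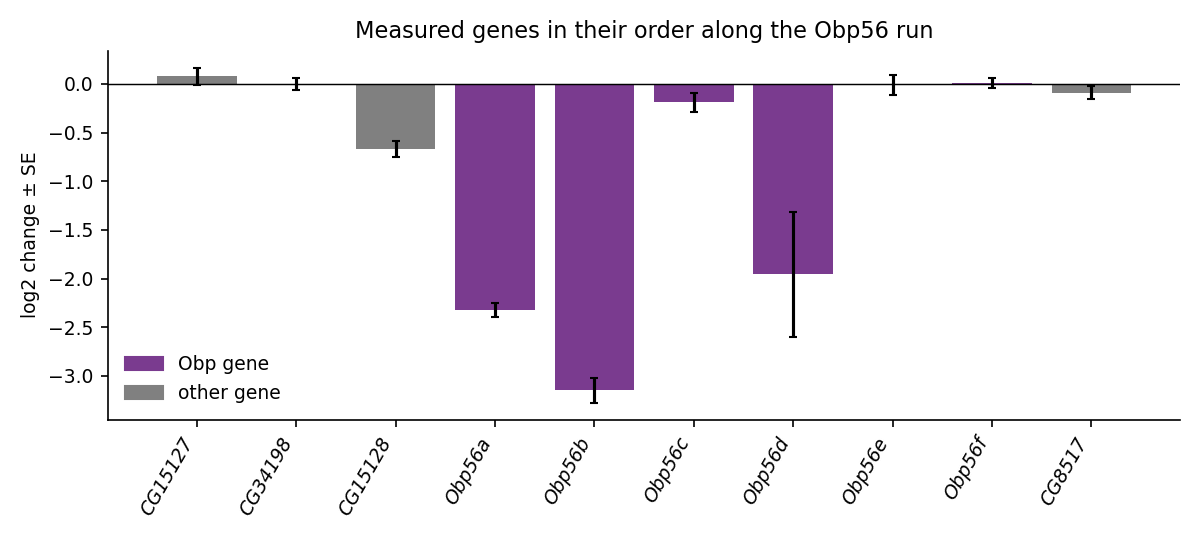
Log2 change, mutant minus wild type, with SE (vertical axis) of the measured genes in their order along the Obp56 run, Obp genes in purple and other genes in grey; distances are not drawn. The bars of Obp56a, Obp56b and Obp56d reach -2.32, -3.15 and -1.96, that of CG15128 -0.67, and those of the other genes stay within 0.2 of 0.

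Obp99a, Obp99b and Obp99c were the other bright set. Obp99b is also known as tsx (turn-on-sex-specific), a gene of the fat body of adult males. In the discs it read 10.02, 8.50 and 9.09 in wild type and 6.38, 6.21 and 6.53 in the mutant. Every mutant array lay well below every wild type array, and the wild type arrays differed far more among themselves than the mutant arrays. Obp99b fell 7.11-fold (change -2.83 ± 0.34, SE; adjusted p = 0.00127, limma), with a 95% interval from 4.08-fold to 12.4-fold.

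Obp99a gave tight values in both genotypes, 8.81, 8.93 and 8.76 in wild type and 7.49, 7.47 and 7.31 in the mutant. Obp99a fell by 1.41 ± 0.07 (SE, 2.66-fold; adjusted p = 2.32e-05, limma), with no overlap of the groups. Obp99c read 6.06, 5.13 and 5.22 in wild type and 4.53, 4.19 and 4.58 in the mutant, so the groups were separate but close, and the mutant arrays lay about the median signal. Its change was -1.04 ± 0.24 (SE; adjusted p = 0.0253, limma). The call of Obp99c was lost without mutant replicate 1, 2 or 3 (adjusted p = 0.0592, 0.0821 and 0.0599, limma), and the change read -0.74 without wild type replicate 1. Obp99d, which forms a run with Obp99b, was dim in both genotypes and was not called (change 0.16 ± 0.07, SE, adjusted p = 0.139, limma).

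None of the genes beside these was called. The nearest measured neighbours were ppk30 and ppk19 for Obp99a, Gycalpha99B and dmrt99B for Obp99c, and Dup99B and CG15506 for Obp99b. Their changes ran from -0.12 for Dup99B and ppk30 to 0.01 for Gycalpha99B and CG15506. The bodies of Obp99c and Gycalpha99B overlap in the gene table, and the Gycalpha99B probe set read 4.71 ± 0.04 and 4.73 ± 0.07 in wild type and mutant (SD, n = 3 each).

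Obp83g had the smallest fall among the bright called genes and the tightest mutant values. It read 7.42, 7.41 and 7.59 in wild type against 6.54, 6.57 and 6.56 in the mutant, with no overlap. The change was -0.92 ± 0.06 (SE; adjusted p = 7.90e-05, limma), a fall of 1.89-fold. Obp83ef and Obp83cd, which precede it in the same run, were dim in both genotypes, changed by 0.09 ± 0.06 and -0.15 ± 0.11 (SE), and were not called. Vha14-2, the next measured gene on the other side, changed by -0.01 ± 0.08 (SE).

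Obp44a, known from glia of the fly nervous system, had the widest wild type spread of the family. It read 7.30, 4.43 and 7.39 on the wild type arrays of replicates 1, 2 and 3 and 5.35, 5.17 and 5.16 on the mutant arrays. The groups overlapped, because wild type replicate 2 lay below all mutant arrays while the other wild type arrays lay above them. The change of -1.15 ± 0.73 (SE) was not called (adjusted p = 0.356, limma), with a 95% interval from -2.86 to 0.57. Without wild type replicate 2 the change was -2.12 and was called (adjusted p = 4.53e-05, limma). The glial markers repo and alrm were dim on all arrays, at 2.82 ± 0.10 and 2.74 ± 0.07 in wild type (SD, n = 3). At such signals they cannot show whether glial RNA followed this split. The brightest genes listed for neurons and glia, nrv2 and elav, varied little among the wild type arrays. In replicates 1, 2 and 3 nrv2 read 10.38, 10.35 and 10.41, and elav 9.44, 9.47 and 9.48. The list mixes genes of neurons and glia, so steady signals of nrv2 and elav do not show whether glial RNA followed the split either. The part of glia in the Obp44a signal was not tested.

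Among all 11982 genes, the wild type SD of Obp44a, Obp56d, Obp99b and Obp99c (1.69, 1.45, 0.77 and 0.51) stood far above the median of 0.08, with Obp99c, the lowest of the 4, at percentile 99.6. Those of Obp56a, Obp83g, Obp99a and Obp56b stood at percentiles 75.7, 64.5, 59.6 and 14.1. The bright Obp genes thus fell into a widely spread set and a tighter set among the wild type arrays. Both sets had lower means in the mutant. That lends no support to a direction, since the signal limit for bright genes was chosen after the signals were seen.

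Several fat body markers were lower in the mutant and varied among the wild type arrays. The fat body is the larval counterpart of liver and adipose tissue, and its fragments can adhere to dissected discs. Of 10 measured genes of the fat body list 5 were called lower, or 50.0% against 11.9% of all genes, and none higher (limma; 6 lower and 0 higher at an unadjusted p under 0.05). Their summed linear signal was 3280.0 to 3854 on the wild type arrays and 1248 to 1391 on the mutant arrays. Such a sum weighs the brightest genes of a list most, here FASN1, and does not measure the content of a tissue. The storage protein gene Lsp2 read 9.26, 7.99 and 8.77 in wild type and fell by 1.92 ± 0.29 (SE, adjusted p = 0.00386, limma). Fbp2 read 8.39, 6.66 and 7.50 in wild type and fell by 2.82 ± 0.38 (SE). Obp99b, Lsp2, Fbp1, Fbp2 and apolpp had the same order of wild type arrays, replicate 1 highest and replicate 2 lowest. Obp99c had this order too, but Obp44a was highest in replicate 3 and Obp56d lowest in it. Over the whole family the order was found in 7 of 47 Obp genes, or 14.9%, near the 14.6% of all genes. It was found in 4 of the 10 fat body genes and 3 of 9 salivary gland genes (Sgs1, Sgs7 and Sgs8). Of 10 haemocyte genes 5 had it, among them Hml, Pxn and He. The lipid synthesis gene FASN1, the brightest of the list, did not share this order: it read 10.90, 11.10 and 10.90 in wild type and fell by 1.40 ± 0.08 (SE). Nor did the collagen gene Col4a1, listed for fat body under an older symbol and also for haemocytes, which read 9.13, 8.99 and 8.71 and fell by 0.92 ± 0.11. The yolk protein genes Yp1, Yp2 and Yp3 of the list stayed under 5.1 on all arrays and were not called. Among the mutant arrays Lsp2, Fbp1, Fbp2 and apolpp were lowest in replicate 1, at 6.54, 5.25, 4.48 and 5.16. Obp99b and Obp99c were lowest in mutant replicate 2, at 6.21 and 4.19, as were FASN1 and Col4a1, at 9.51 and 7.94. The part of adhering fat body in the Obp changes was not tested, and in these bulk samples fewer cells of a type and less RNA per cell cannot be told apart.

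**Figure D3:**
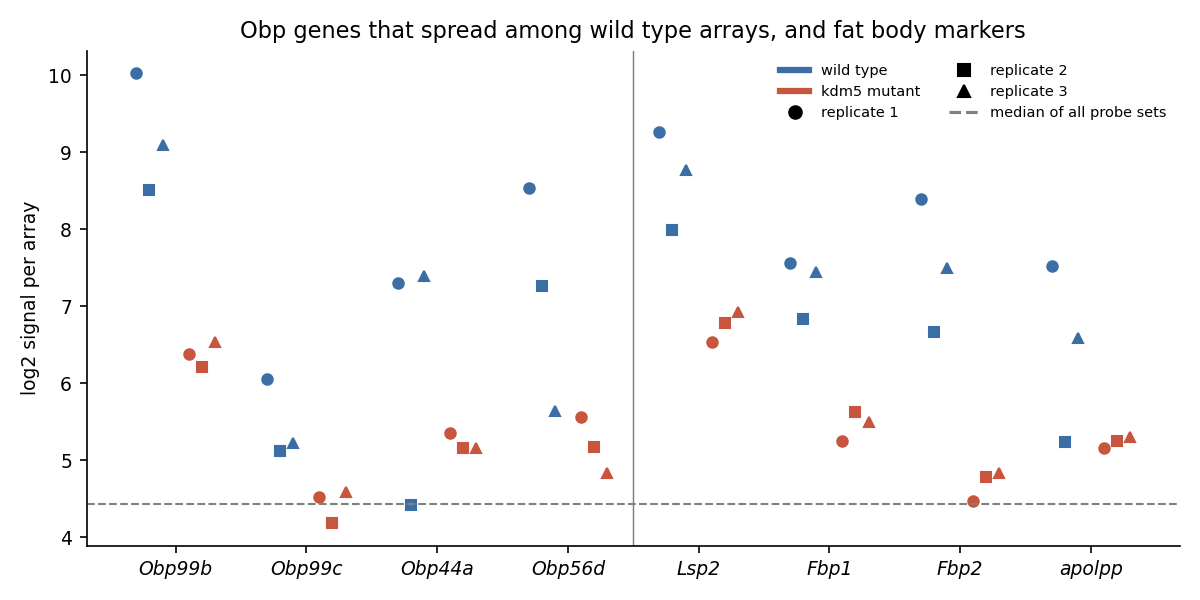
Log2 signal per array (vertical axis) of the 4 Obp genes that spread most among wild type arrays, left of the vertical line, and of the 4 fat body markers with the widest wild type spread, right of it; blue is wild type, red the kdm5 mutant, shapes give the replicate number and the dashed line is the median of all probe sets. In Obp99b, Obp99c and the 4 markers wild type replicate 1 is highest and replicate 2 lowest, whereas Obp56d is lowest in replicate 3.

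Markers of other tissues were called in differing shares, beside 11.9% lower and 9.76% higher calls over all genes. Of 9 salivary gland genes 7 were called lower, or 77.8%, and none higher (limma; 7 and 0 at an unadjusted p under 0.05), with a summed linear signal of 4031 to 9229 in wild type and 778 to 844 in the mutant. The brightest were the glue genes Sgs7 and Sgs3, which fell by 2.97 ± 0.24 and 3.08 ± 0.39 (SE). Of 10 haemocyte genes 6 were called lower, or 60.0%, and 1, eater, higher, with sums of 1671 to 2175 and 1057 to 1112, and the brightest, vkg and Col4a1, fell by 0.66 ± 0.12 and 0.92 ± 0.11. The sums of the 8 wing disc genes were 18449 to 18721 and 17119.6 to 18574, with 3 called lower, or 37.5%. Among 7 genes of neurons and glia 2 were called lower, or 28.6%, and the brightest, nrv2 and elav, changed by -0.08 ± 0.08 and -0.12 ± 0.05 without a call. Among 8 genes of sensory organ formation 2 were called lower and 2 higher, or 25.0% each, and the brightest were the proneural genes ac and sc, which fell by 0.30 ± 0.05 and 0.26 ± 0.06. The part of these tissues in the Obp changes was not tested.

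The 39 dim Obp genes varied little. Their means were lower in the mutant in 19 and higher in 20, and their median change was 0.01. The 37 that were not called changed by between -0.20 and 0.27, with 95% intervals that stayed within -0.44 and 0.49. Dim genes, here those at or under 5 on every array, made up 83.0% of the family, beside 42.3% of all genes. Obp19b is counted as dim by this limit, though it lay above the median signal on every array, at 4.64 to 4.83. At dim signals a probe set may report background more than transcript, so these intervals bound a change of signal, not of RNA.

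Among 6 dim members known from the adult antenna (Obp19d, Obp28a, Obp59a, Obp69a, Obp83b and Obp84a) all signals lay between 2.98 and 4.58, whereas the antennal member Obp56d, described above, was bright. Obp69a, a pheromone-binding protein relative of olfactory hairs, was the one called, at 3.39, 3.75 and 3.50 in wild type and 3.11, 3.13 and 3.16 in the mutant. The groups were separate, but all these signals were dim and the change was -0.41 ± 0.09 (SE, adjusted p = 0.0187, limma). Its call was lost without any 1 of the 3 mutant arrays (adjusted p from 0.0550 to 0.0622, limma). CG32104, whose body overlaps Obp69a in the gene table, was bright and read 8.11 ± 0.10 and 8.12 ± 0.03 (SD, n = 3 each). Smyd4-2, a gene of the SET domain family on the other side of Obp69a, changed by -0.98 ± 0.10 (SE, adjusted p = 0.000645, limma).

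Obp49a, which in adult taste hairs takes part in the suppression of sweet taste by bitter compounds, was the single Obp gene called higher. It read 3.78, 3.50 and 3.77 in wild type and 3.97, 4.06 and 4.07 in the mutant. The groups were separate and dim throughout, and the change was 0.35 ± 0.09 (SE, adjusted p = 0.0293, limma). Its call was lost without mutant replicate 1, 2 or 3 (adjusted p = 0.0561, 0.0932 and 0.0909, limma) and with the replicate number as a block (adjusted p = 0.0595, limma). Beside it CG8768 fell by 0.35 ± 0.06 (SE, adjusted p = 0.00801, limma), a call lost under hybridization spike-in centring (adjusted p = 0.0655, limma), and CG30053 changed by -0.07 ± 0.06.

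The 7 measured members known as seminal fluid proteins of the male (Obp8a, Obp22a, Obp51a, Obp56e, Obp56f, Obp56g and Obp56i) lay between 2.69 and 4.69, and none was called. Obp56i came closest, with 4.10, 4.12 and 3.99 in wild type and 3.91, 3.82 and 3.90 in the mutant (change -0.19 ± 0.06, SE, adjusted p = 0.0620, limma). It was called lower with array weights, averaged probe sets or 1 probe set per gene, and without wild type replicate 3. The 4 genes of the Obp19 run stayed between 4.23 and 4.83 in their brighter probe sets and were not called, nor were those of the Obp57 and Obp58 groups. Obp18a, at 3.57, 3.85 and 3.71 in wild type and 4.04, 3.95 and 3.96 in the mutant, missed the threshold by little (adjusted p = 0.0530, limma). It was called higher with median centring, both spike-in centrings, array weights, averaged probe sets or 1 probe set per gene. Without wild type replicate 2 it was called higher too.

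**Figure D4:**
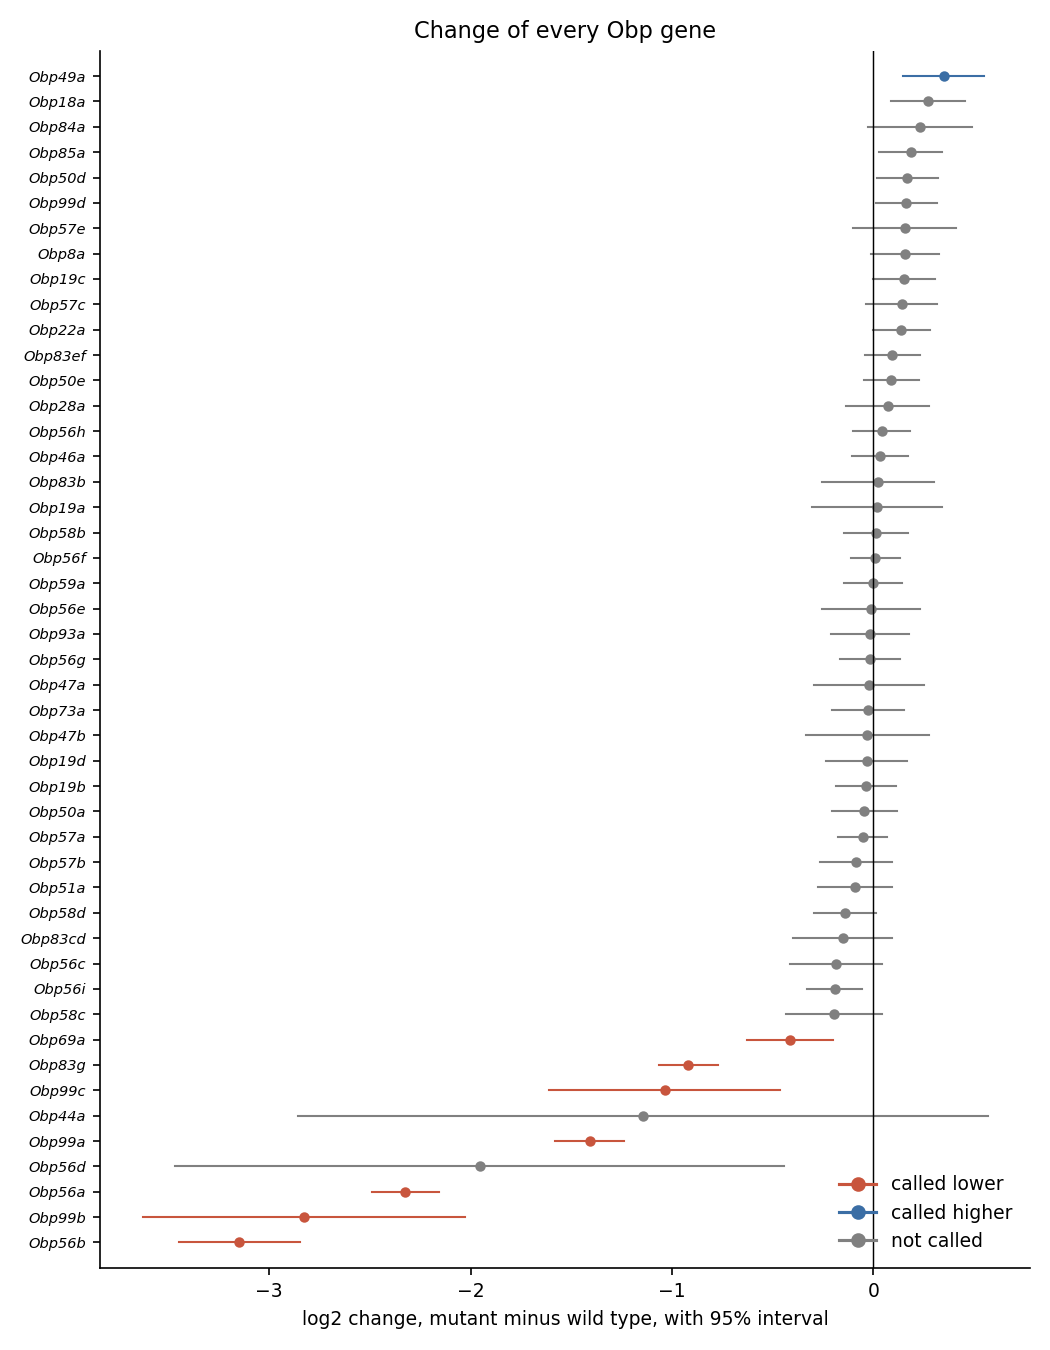
Log2 change, mutant minus wild type (horizontal axis), of all 47 Obp genes in order of change; points are estimates, lines 95% intervals, red called lower, blue called higher and grey not called. The 8 genes with a signal over 5 on any array occupy the 8 lowest places, and the other 39 lie between -0.41 and 0.35. The limit of 5 was chosen after the signals were seen, and Obp56b and Obp99c exceed it only in wild type. These places thus lend no support to a direction.

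The odorant-binding protein lush, which binds the male pheromone cVA and is named outside the Obp series, was dim, at 3.27, 3.09 and 3.16 in wild type and 3.51, 3.34 and 3.42 in the mutant. It was called higher by 0.25 ± 0.07 (SE, adjusted p = 0.0474, limma), a call lost under 8 of 15 alternatives. The odorant co-receptor gene Orco was dim too (3.50 ± 0.07 and 3.78 ± 0.06, SD, n = 3 each), with a change of 0.28 ± 0.06 (SE, adjusted p = 0.0155, limma). Its call was lost without mutant replicate 1 or 3 (adjusted p = 0.0513 and 0.0515, limma).

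Other chemosensory families were mostly dim as well. Of 212 genes of the odorant, gustatory and ionotropic receptors, the CheA and CheB proteins, the pickpocket channels and a list of odour partners, 201 stayed at or under 5 on every array. Called lower were 6, or 2.83%, against 11.9% of all genes, and called higher 6, or 2.83%, against 9.76%. With the arrays centred on the hybridization spike-in controls, which raises the median change of all genes to 0.17, 59 were called higher. Without wild type replicate 1 or mutant replicate 2 there were 2, and without mutant replicate 1 or 3 there were 3. The shares of all genes called higher under these alternatives are not given here, so these counts cannot be set beside 9.76%. The brightest of the odour partners was Phk-3, a pherokine of the chemosensory protein family, which fell from 12.22 ± 0.03 to 11.61 ± 0.07 (SD, n = 3 each; change -0.61 ± 0.06, SE, adjusted p = 0.000317, limma). Its relative EbpIII changed by 0.16 ± 0.13 (SE) and was not called.

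Among receptor and channel genes with wild type means over 5, Gr61a, Ir76a, ppk28 and ppk29 were called lower. Or43b, ppk18 and ppk23 changed by -0.10, -0.02 and 0.08 and were not called. Ir68b, over 5 on mutant arrays only, changed by 0.20 and was not called. A limit on the wild type signal favours falls, so these calls lend no support to a direction. Gr61a, a receptor for sugars, went from 6.07 ± 0.22 to 4.03 ± 0.31 (SD, n = 3 each) and fell by 2.04 ± 0.17 on the log2 scale (SE, adjusted p = 0.000225, limma). Ir76a, a receptor for amines in the antenna, fell by 0.91 ± 0.10 from 8.55 ± 0.11 (SD, n = 3). The water taste channel gene ppk28 fell by 1.07 ± 0.13 to 4.28 ± 0.23 (SD, n = 3), and the pheromone channel gene ppk29 fell by 0.51 ± 0.10 (SE), a call lost without wild type replicate 1 (adjusted p = 0.0501, limma). In the mutant Gr61a and ppk28 were dim, below the median signal, so background may enter the size of their changes. The other calls, Or67d lower and Or67a, Or92a, Gr93b and Ir76b higher, were at signals under 5 with changes between -0.19 and 0.62. Of the 12 CheA and CheB genes none was called (limma; 0 higher and 1 lower at an unadjusted p under 0.05).

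Of the 12 measured neighbours of called Obp genes that lie outside the family, 3 were called lower, CG15128, CG8768 and Smyd4-2, or 25.0% against 11.9% of all genes, and none higher (limma; 3 and 0 at an unadjusted p under 0.05).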

How the data were processed

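The deposited values are normalized log2 signals per probe set, made by the authors; GCOS, PLIER, GCRMA and Affymetrix Expression Console are listed in the submitters' processing notes, with no word on which of them gave these values. Samples were grouped and numbered by their titles. Of 18952 probe sets 183 controls were left out, and 18769 were tested with limma 3.58.1 (lmFit and eBayes, R 4.3.3), genotype as the only term, two-sided, with Benjamini-Hochberg adjustment over all of them; the test was checked on simulated data. Platform annotation gave 1 symbol for 13647 probe sets, several for 402 and none for 4720, and 13544 symbols were updated through the gene table of GCF_000001215.4 Release 6, which gave the order of genes as well. Coordinates are left out because no build is named. A gene is represented by its probe set of highest mean. The members, lists and tests were chosen with earlier results of these data known. Named are the called Obp genes, the 8 of highest mean, called genes of the other families (up to 4 per family and direction), neighbours, lush, Kdm5 and the 2 brightest markers per list; other genes, the antennal and seminal groups and the signal limit of 5 were chosen after values were seen. List members without a matched probe set were not analysed here. A grouping by cysteines in the proteins, planned for the family, was not made, since no protein sequences were used here. Alternatives were a replicate block, quantile normalization, 3 centrings, a filter on dim probe sets, another prior, array weights, other uses of several probe sets, and each array left out. The number of arrays, 3 per genotype, limits the precision.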

Additional observations from a re-analysis of the deposited data

How the results depend on the processing

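Under the 10 alternatives that kept all arrays, lower calls among the Obp genes numbered 7 or 8 of 47, except with the filter on dim probe sets. The filter kept 12 members, of which 6 were called lower. With 1 array left out, lower calls numbered 5 to 9 of 47. The shares of all genes called lower under each alternative are not given here, so these counts cannot be set beside the 11.9% reported above. Obp56a, Obp56b, Obp99a, Obp99b and Obp83g were called lower under all 16. Lower calls of at least 2-fold, a count added after seeing the data, numbered 4 to 6 of 47 without the filter. The share of all genes was then 1.39% to 1.90%. With the filter they numbered 5 of 12, against 2.86% of all genes kept. Higher calls, 1 as reported, numbered 0 with the replicate block and 0 with the filter on dim probe sets (limma; 6 and 0 at an unadjusted p under 0.05), 2 with median centring, polyadenylated spike-in centring, array weights, averaged probe sets or 1 probe set per gene, 13 with hybridization spike-in centring, and 0 to 2 with 1 array left out. The median change of the Obp genes read 0.15 and 0.050 under the hybridization and polyadenylated spike-in centrings, which move the median of all genes to 0.17 and 0.07. With the filter on dim probe sets it read -1.09 over 12 members, beside -0.004 for all genes kept. The filter uses the mean of all 6 arrays. It thus keeps genes such as Obp56b, dim only in the mutant, which favours falls, and this median lends no support to a direction. Higher calls in the other chemosensory families numbered 6, and 59, 10 and 2 under hybridization centring, polyadenylated centring and the filter, and 2 to 5 with 1 array left out. The shares of all genes called higher under each alternative are not given here, so counts of higher calls cannot be set beside the 9.76% reported above. Obp56d was called with the replicate block (-1.96, adjusted p = 0.0307, limma), the hybridization and polyadenylated spike-in centrings (0.0330 and 0.0384) and without wild type replicate 3, with adjusted p from 0.00687 to 0.223 over all alternatives. Obp69a lost its call under hybridization spike-in centring (-0.25, adjusted p = 0.0703, limma). The cause of these shifts was not tested. The labels tie same-numbered arrays of both genotypes by a number only. The deviations of these arrays correlated at 0.00, 0.01 and -0.11, and 0 of 6 arrays correlated best with its own number. Such values cannot show whether same-numbered arrays shared a preparation.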

Other observations

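Some probe sets match an Obp gene and a further gene and were left out of the family. Those shared by Obp50b and Obp50c read 5.22 ± 0.09 in wild type and 5.20 ± 0.10 in the mutant for the brighter, and 3.70 ± 0.18 and 3.73 ± 0.11 for the dimmer (log2 signal, SD, n = 3 each). Those shared by Obp57d and the cuticle protein gene Cpr57A read 6.61 ± 0.09 and 6.66 ± 0.04, and 3.62 ± 0.22 and 3.63 ± 0.10. None was called, with adjusted p from 0.659 to 0.971 (limma), and the signal of the brighter ones cannot be assigned to 1 gene. In 3 members, Obp19a, Obp19c and Obp59a, a second probe set existed. It was dimmer and not called in each, with changes of 0.11 ± 0.11, -0.11 ± 0.09 and -0.09 ± 0.05 (log2, SE) beside 0.02 ± 0.14, 0.15 ± 0.07 and 0.00 ± 0.06 for the first.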
